A study of Mus musculus with 6 samples.

Results

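The genes described here are the well-expressed Zfp genes of the mouse Lewis lung carcinoma (LLC) line. Zfp is the mouse symbol for zinc-finger protein. Members carry a symbol of Zfp plus a number, with or without 1 letter, and a mean deposited log2 value of at least 8 over the 6 libraries. Of 401 such symbols among the 55367 genes of the table, 150 passed and 251 lay under the level. Members were thus chosen by their level averaged over both treatments and not by the difference between them, so levels are given as a description and the differences are tested. Zfp934 and Zfp408 lay just inside the level with means of 8.02 each, and Zfp74 with 7.99 and Zfp668 with 7.98 lay just outside it. Zfp408 passed through its STM2457 values of 8.06, 8.05 and 8.11, since those in DMSO were 7.97, 7.98 and 7.92.

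RNA sequencing compared 3 libraries from cells given STM2457 with 3 libraries from cells given the solvent DMSO. STM2457 is a small-molecule inhibitor of METTL3, which makes the N6-methyladenosine (m6A) mark of mRNA, and it was used at 5 µM for 46 h. The DMSO cells were cultured for the same 46 h. All samples were labelled wild type and came from the 1 cancer cell line, and no label says that replicates were separate cultures, so p-values measure the spread between these libraries, which may be technical. The libraries held 17671636 to 17917217 reads in genes, as recovered from the deposited values. Mettl3, whose product the compound inhibits, had 499, 451 and 513 normalised reads in STM2457 replicates 1 to 3, against 469, 601 and 540 in DMSO, with an adjusted p of 0.15 (limma). The groups overlap, and Mettl3 was called lower with upper quartiles or medians set equal (0.04 and 0.035) and without DMSO replicate 1 (0.0089). The epithelial markers Epcam and Cdh1 and the immune markers Cd3e and Itgam were at 0 in every library. The 4 epithelial markers summed to 0.0 to 6.9 normalised reads in STM2457 and 10.0 to 10.9 in DMSO, the 4 immune markers to 0.0 to 4.0 and 1.0 to 6.0, and the 2 endothelial markers to 3.0 to 5.0 and 1.0 to 4.0. The 3 mesenchymal markers Vim, Fn1 and Cdh2 summed to 74178.5 to 75733.9 in STM2457 and 92460.5 to 94228.3 in DMSO. That sum is carried by Vim and Fn1, while Cdh2 was higher in every STM2457 library, with 633.7, 667.9 and 648.0 normalised reads, against 535.8, 469.6 and 477.2 in DMSO. The part of these marker differences in the results was not tested. In bulk RNA, fewer cells of a type and less RNA per cell cannot be told apart.

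Most Zfp proteins bind nucleic acids through zinc fingers of the C2H2 type, in which a pair of cysteines and a pair of histidines hold a zinc ion. In the transcription factors of the family the fingers stand in a row, often joined by a conserved linker that reads threonine, glycine, glutamate, lysine, proline. Many carry a KRAB box, a short domain that recruits the co-repressor TRIM28 and, through it, the histone methyltransferase SETDB1, and these proteins are best known for silencing transposable elements and guarding imprinted genes. Others have no KRAB box and act as activators, RNA-binding proteins or ubiquitin ligases. METTL3 methylates adenosines in the DRACH context, where D is A, G or U, R is A or G, and H is A, C or U.

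The finger linker is the sequence that most members share, and some of its codons hold a DRACH match, so first linkers of members that rose and of members that fell are shown. Each is the 15 bases of the linker with 6 bases on either side, from GENCODE M21 transcripts on GRCm38, lies in a coding exon and is read 5′ to 3′ on the gene's strand. Capitals mark a DRACH match within the linker, written as DNA. The genes that rose are Zfp771 at chr7:127254081-127254107 (plus strand), Zfp568 at chr7:30022949-30022975 (plus), Zfp319 at chr8:95328884-95328910 (minus) and Zfp65 at chr13:67708493-67708519 (minus). The genes that fell are Zfp523 at chr17:28201034-28201060 (plus), Zfp945 at chr17:22851535-22851561 (minus), Zfp760 at chr17:21722446-21722472 (plus), Zfp101 at chr17:33381620-33381646 (minus) and Zfp1 at chr8:111669958-111669984 (plus).
Zfp771: cgtcacaccggagagaagccgtacgca
Zfp568: atccacactggggagaagcctcacaag
Zfp319: atccacaccggagagaagccgtataag
Zfp65: attcatacaggagagaagccatacaag
Zfp523: actcacacgggtgagAAACCatacaag
Zfp945: attcatacaggagagAAACCttataaa
Zfp760: cttcacactggagagAAACCatggaaa
Zfp101: attcacactggagagaagccttatgcc
Zfp1: atccacacgggcgagaagccctatgag

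The 4 first linkers from members that rose held no match, and 3 of the 5 from members that fell held the match AAACC. The match comes with the lysine codon AAA before the proline codon and is missing where lysine is written AAG. Over all members, 450 linkers were found in 92 genes and 236 of them (52.4%) held a DRACH match, AAACC every time. The share was 31.9% of 135 linkers in members that rose, 62% of 129 in members that fell and 60.8% of 186 in members not called. It was 60.9% of 320 linkers in members with a KRAB box and 31.5% of 130 in members without one. Linkers held a small part of the family's DRACH matches, 3.47% of the 6793 in members' coding sequence. A match is a sequence only, and no methylation was measured in these libraries.

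The 150 members changed in both directions and by small amounts. After STM2457, 54 members (36.0%) rose and 38 (25.3%) fell, and 58 were not called (limma, Benjamini-Hochberg adjusted p under 0.05). Among all 12618 genes tested 30.7% rose and 25.7% fell, 56.3% in either direction. Among the 8275 tested genes with the same minimum level of 8, 38.9% rose and 24% fell, 62.9% in either direction, so the members' shares lie near the background. The split depends on how the libraries are centred: with the upper quartile set equal, 41 members rose and 56 fell, and all tested genes moved with them, to 2819 higher and 4814 lower against 3868 and 3240. With the medians set equal, 44 members rose and 53 fell. Groups did not overlap for 102 members, with STM2457 above in 58 and below in 44, beside 61.8% of all tested genes and 68.2% of those with a mean of at least 8.

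Members had means of 259 to 5787 reads per library, with a median of 550, and the median per length was 104 normalised reads per kb of exon in STM2457 and 104 in DMSO. The median log2 fold in recovered reads was 0.06 over the 150 members and 0.05 over all tested genes with a mean of at least 8. On the deposited scale the members' median log2 difference of 0.03 turned to -0.008 with upper quartiles set equal and to -0.003 with medians set equal. The middle 50% of the members lay between log2 folds of -0.15 and 0.23, and the range ran from 0.67-fold to 1.59-fold. Changes over 1.5-fold that passed the test numbered 4 members, Zfp771, Zfp568, Zfp319 and Zfp628, and all 4 rose. On the falling side Zfp688, with a log2 fold of -0.58, and Zfp395, with -0.56, lay just short of that size. The background for that size was 11.5% of all tested genes and 4.82% of those with a mean of at least 8.

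**Figure D1:**
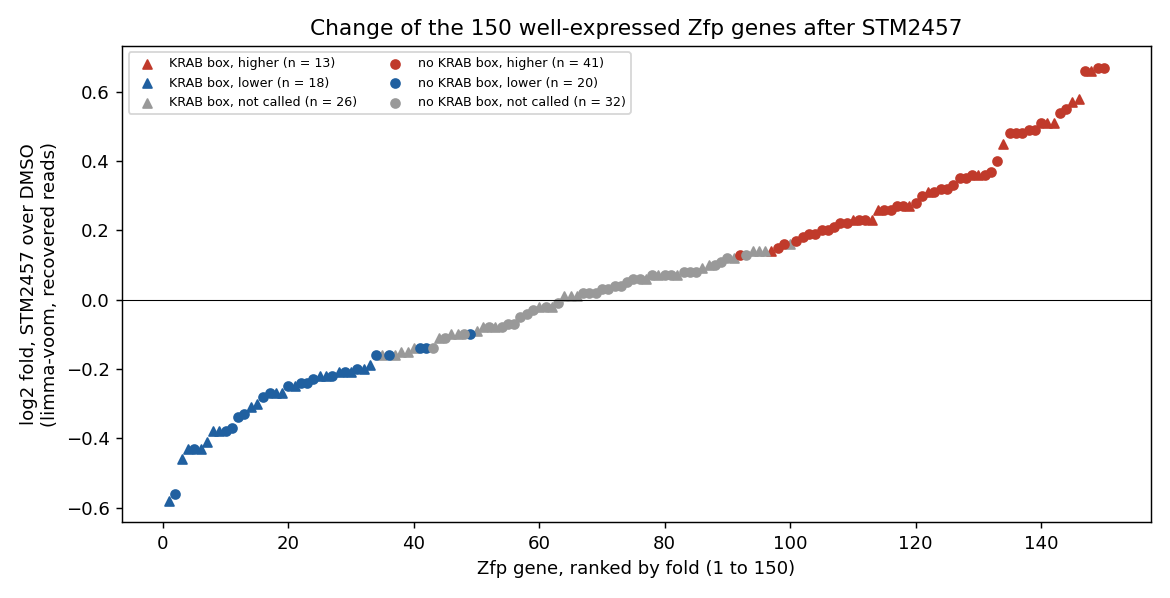
Log2 fold of STM2457 over DMSO in recovered reads (y axis, limma-voom) for the 150 members ranked by fold (x axis). Colour gives the call and shape the KRAB box. The folds run from 0.67-fold to 1.59-fold, with 54 members higher and 38 lower, a split that turns to 41 higher and 56 lower with upper quartiles set equal.

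Zfp771 encodes a protein without a KRAB box and with 8 fingers, counted by a strict spacing that can miss some. It had 1037, 1046 and 951 normalised reads in STM2457, against 598, 689 and 624 in DMSO. All 3 STM2457 libraries lay far above all 3 DMSO libraries, a 1.59-fold rise with an adjusted p of 6.1e-10. Zfp568, a KRAB protein known in the mouse embryo for silencing a placental transcript of Igf2, had 601, 582 and 540 normalised reads in STM2457, against 375, 374 and 340 in DMSO. The groups were again far apart, with a 1.58-fold rise (adjusted p = 6.4e-09). Zfp319, with 12 fingers, had 421, 465 and 428 normalised reads in STM2457, against 270, 269 and 290 in DMSO, with no overlap and a 1.58-fold rise (adjusted p = 2.4e-08). Zfp628, with 16 fingers, had 361, 430 and 358 normalised reads in STM2457, against 206, 277 and 239 in DMSO. Its replicates spread more than those of the other 3 genes, yet the groups did not overlap, and the rise was 1.59-fold (adjusted p = 6.9e-06).

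The other 8 of the 12 members with the greatest rise in deposited log2 values had folds in reads from 1.39 to 1.49, with STM2457 above DMSO in every library. By fold in reads the order differs slightly, and Zfp800 at 1.42-fold, named after its values were seen, lies among them. Zfp280b averaged 574 ± 31.9 normalised reads in STM2457 and 394 ± 34.3 in DMSO (SD, n = 3 each), and Zfp35 averaged 549 ± 8.02 and 376 ± 12.2. Both rose 1.46-fold. Zfp267, a KRAB gene, averaged 423 ± 19.3 in STM2457 and 284 ± 7.09 in DMSO, and Zfp251, also with a KRAB box, averaged 568 ± 33.2 and 398 ± 1.38. These 2 genes rose 1.49-fold and 1.43-fold. Zfp444 averaged 799 ± 10.8 in STM2457 and 575 ± 43.2 in DMSO, a 1.39-fold rise, and the KRAB gene Zfp65 averaged 450 ± 8.09 and 315 ± 11.3, a 1.43-fold rise. Zfp764 and Zfp553, the other two of this group, are described with their neighbours on chromosome 7.

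Among the falls, Zfp395, whose human counterpart ZNF395 is known as a hypoxia-induced factor, had 448, 399 and 403 normalised reads in STM2457, against 590, 586 and 671 in DMSO. Every STM2457 library lay below every DMSO library, and the level was 0.68-fold (adjusted p = 1.4e-07). Zfp523, the counterpart of human ZNF76 and a relative of Zfp143, had 558, 532 and 592 normalised reads in STM2457, against 709, 774 and 777 in DMSO. The groups stood apart, at 0.74-fold (adjusted p = 1.0e-06). Zfp143 itself, an activator of small nuclear RNA and housekeeping promoters that was chosen after its values were seen, had 481, 502 and 525 in STM2457, against 642, 549 and 604 in DMSO. It fell too, to 0.84-fold (adjusted p = 0.0018). Exons of the members Zfp523, Zfp143, Zfp319, Zfp553, Zfp639, Zfp346, Zfp410, Zfp955b, Zfp106, Zfp800, Zfp646, Zfp706 and Zfp740 overlap a gene on the opposite strand. No label says whether counting used strand.

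Zfp57 and Zfp445 are the KRAB proteins best known for keeping DNA methylation at imprinted loci. Zfp57 had 285, 273 and 291 normalised reads in STM2457, against 374, 389 and 383 in DMSO, a clear gap and a level of 0.74-fold (adjusted p = 1.2e-05). Zfp445, chosen after its values were seen, had 992, 925 and 1001 in STM2457, against 1056, 1092 and 999 in DMSO, which overlap and did not pass (adjusted p = 0.068). It was called lower with upper quartiles or medians set equal (0.0048 and 0.0058) and without DMSO replicate 3 (0.035, limma).

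Zfp131, a BTB-domain zinc-finger protein, was among the better expressed genes that fell, with 1345, 1355 and 1360 normalised reads in STM2457, against 1669, 1779 and 1703 in DMSO. Its replicates were tight and the level was 0.79-fold (adjusted p = 2.3e-07). The KRAB genes Zfp945 and Zfp760 averaged 345 ± 21.5 and 384 ± 6.28 in STM2457, against 474 ± 18.8 and 519 ± 35.2 in DMSO (SD, n = 3 each), at 0.73-fold and 0.74-fold. Zfp639, Zfp692 and the KRAB gene Zfp1 each stood at 0.77-fold and Zfp512 at 0.79-fold, with adjusted p-values from 2.9e-06 to 1.3e-04 (limma) and no overlap between groups.

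**Figure D2:**
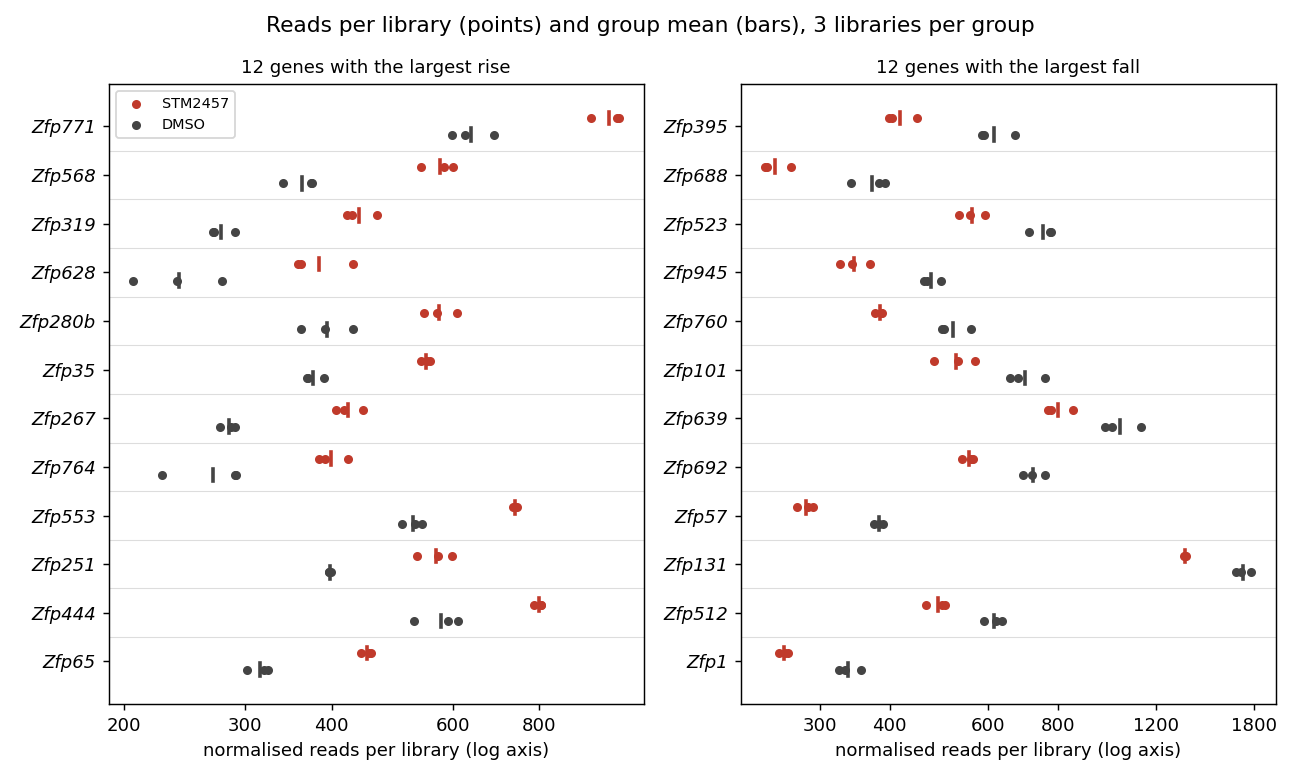
Normalised reads per library (x axis, log scale) for the 12 members that rose most and the 12 that fell most in deposited log2 values, among called members whose groups do not overlap; the order by fold in reads differs slightly. Points are the 3 libraries of each group and vertical bars their mean, with STM2457 drawn above DMSO in each row. In all 24 genes the points of one group clear those of the other, and relative to the mean the widest spreads within a group are those of Zfp628 and Zfp764 in DMSO.

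By count, rises were fewer and falls more frequent among KRAB members than among the others; members are not replicates, so no test compares the classes. Of 57 members with a KRAB box 13 rose and 18 fell (22.8% and 31.6%), with a median log2 fold of -0.08. Of 93 members without one 41 rose and 20 fell (44.1% and 21.5%), with a median log2 fold of 0.08. Among all tested genes with a mean of at least 8, 38.9% rose and 24% fell. With upper quartiles set equal the counts were 10 higher and 29 lower for KRAB members and 31 higher and 27 lower for the others, and the medians on the deposited scale were -0.07 and 0.001. The cutoff for calling a KRAB box was varied after seeing the data. From 12 matching residues in place of 16, 59 members had a box, and 15 rose and 18 fell. From 21, 55 members had a box, and 13 rose and 18 fell. At the cutoff of 16, KRAB members were also the less abundant class, with a median of 390 mean reads against 639. Their GC content was lower, with 43.1% against 54.2% of coding bases. Many KRAB members lie on chromosome 17, where 3 of 22 members rose and 11 fell. Its runs of 12 and 6 members held 11 and 5 KRAB genes. In those runs 2 and 0 members rose and 3 and 5 fell. These counts include Zfp213, which rose, and Zfp414, which fell, both without a KRAB box at the cutoff of 16. The part of level, GC content and chromosome 17 in the difference was not tested. Both classes spanned nearly the same range, from -0.58 to 0.66 for KRAB members and from -0.56 to 0.67 for the others.

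Fingers were counted by a strict spacing of cysteines and histidines, which can miss fingers. Zfp143 and Zfp523 counted 1 finger each though each held 2 linkers, so the low classes may include undercounted members. By finger number, among 23 members with 0 to 2 fingers 7 rose and 9 fell, and among 24 with 3 to 5 fingers 9 rose and 6 fell. Among 36 with 6 to 9 fingers 15 rose and 7 fell. Among 32 members with 10 to 12 fingers 12 rose and 6 fell, and among 35 with 13 or more 11 rose and 10 fell. All tested genes with a mean of at least 8 had 38.9% higher and 24% lower. The counts by finger number are given for the deposited values only, without another centring. The median log2 fold lay between 0.02 and 0.09 in all 5 classes. Spearman's rho of fold with finger number was 0.05 across the 150 members, 0.30 across the 93 without a KRAB box, -0.15 across the 57 with one and 0.01 across 8094 tested genes with a mean of at least 8 and a coding sequence, all across genes of the same 6 libraries and with no test. A SCAN box, a dimerisation domain of some zinc-finger factors, was found in 7 members, of which 3 rose and 1 fell.

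**Figure D3:**
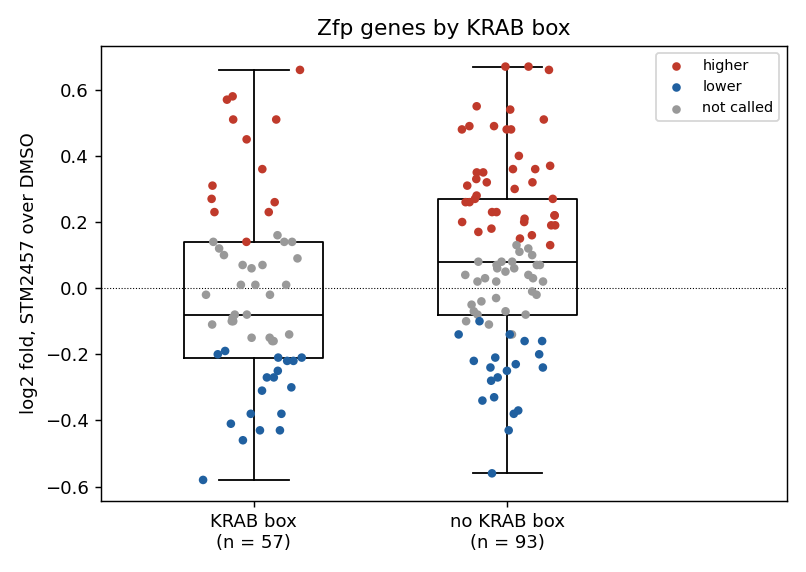
Log2 fold of STM2457 over DMSO in recovered reads (y axis) for the 57 members with a KRAB box and the 93 without. Points are genes coloured by call, boxes the middle 50% with the median, and whiskers the range. The medians are -0.08 and 0.08; on the deposited scale with upper quartiles set equal they are -0.07 and 0.001, so the KRAB class stays below the other class while the sign of the non-KRAB median is near 0.

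Members that act on RNA or the ribosome were followed as a list of 10 genes, 8 of them at the level. Of those 8, 4 rose and 2 fell, beside 36.0% and 25.3% of all members. Zfp598, the ubiquitin ligase that marks collided ribosomes, was one of the best expressed members, with 707 normalised reads per kb of exon in STM2457 and 827 in DMSO. It had 2712, 2847 and 2698 normalised reads in STM2457, against 2889, 3519 and 3256 in DMSO. The highest STM2457 library lay just under the lowest DMSO library, and the level was 0.86-fold (adjusted p = 0.0051). Zfp622, the counterpart of a yeast factor for late maturation of the large ribosomal subunit, had 1200, 1291 and 1210 normalised reads in STM2457, against 924, 1021 and 950 in DMSO. It rose 1.28-fold with no overlap (adjusted p = 1.4e-06).

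Zfp638, an RNA- and DNA-binding nuclear protein known for silencing unintegrated retroviral DNA, had 1327, 1328 and 1322 normalised reads in STM2457, against 1153, 1019 and 1016 in DMSO, a 1.25-fold rise (adjusted p = 5.6e-06). Zfp385a, an RNA-binding target of p53, had 791, 976 and 897 in STM2457, against 691, 715 and 729 in DMSO, and rose 1.24-fold (adjusted p = 2.0e-04). Zfp830, needed for pre-mRNA processing in the mouse embryo, rose 1.21-fold (adjusted p = 0.0018, limma). These 3 genes had every STM2457 library above every DMSO library. Zfp346, which binds double-stranded RNA, had 574, 571 and 518 in STM2457, against 581, 708 and 629 in DMSO. Its groups nearly touch, at 0.87-fold (adjusted p = 0.014), and the adjusted p was 0.1 when DMSO replicate 2 was left out and 0.096 when STM2457 replicate 3 was. Zfp326, part of a complex that links transcription to splicing, and Zfp106, an RNA-binding protein of muscle and motor neurons, each stood at 1.02-fold and were not called, with overlapping groups and adjusted p-values of 0.62 and 0.54 (limma).

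Below the level, Zfp36, the tristetraprolin that brings AU-rich mRNAs to deadenylation, had 236, 240 and 247 normalised reads in STM2457, against 188, 206 and 239 in DMSO, and was not called (adjusted p = 0.069), though it was called higher without DMSO replicate 3 (0.014). Zfp593 was near the floor of the test, with group means of 11.2 and 9.99 normalised reads in STM2457 and DMSO, and was not called.

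In the list of ligases and spindle factors, Zfp207, a kinetochore protein that loads Bub3, was the best expressed member per length, with 830 normalised reads per kb in STM2457 and 834 in DMSO. It had 5495, 5556 and 5522 normalised reads in STM2457, against 5643, 5564 and 5450 in DMSO, with overlap and an adjusted p of 0.88. Zfp91, a ubiquitin ligase, stood at 0.93-fold with an adjusted p of 0.023, which missed the threshold in 5 of the 13 alternative settings. Zfp451, a SUMO ligase, had 853, 885 and 800 in STM2457, against 750, 871 and 822 in DMSO, and was not called (adjusted p = 0.42).

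A list of transcription factors without a KRAB box held 18 members, of which 8 rose and 3 fell (44.4% and 16.7%, beside 38.9% and 24% of tested genes with a mean of at least 8), or 6 and 4 with upper quartiles set equal. Zfp592 and Zfp281, both of this list, were chosen after their values were seen. Zfp592 had 828, 801 and 775 normalised reads in STM2457, against 610, 625 and 653 in DMSO, a 1.27-fold rise (adjusted p = 5.5e-06). Zfp281, a regulator of pluripotency in mouse embryonic stem cells, had 807, 782 and 815 in STM2457, against 678, 628 and 674 in DMSO, a 1.21-fold rise (adjusted p = 8.2e-05). In both genes all STM2457 libraries exceeded all DMSO libraries.

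The partners of KRAB proteins were read from a list of 27 genes, 26 of them tested. Of these 11 rose and 5 fell (42.3% and 19.2%), shares near the 38.9% and 24% of all tested genes with a mean of at least 8, and the counts became 9 and 9 with upper quartiles set equal. Trim28, the co-repressor that binds the KRAB box, had 7991, 7947 and 7747 normalised reads in STM2457, against 7330, 6962 and 7067 in DMSO, a rise of 1.11-fold (adjusted p = 0.0012). Setdb1, the histone H3 lysine 9 methyltransferase, had 2197, 2070 and 2084 in STM2457, against 1718, 1647 and 1666 in DMSO, and rose 1.26-fold (adjusted p = 2.1e-07). No library of one group reached the other in either gene. Gatad2a and Chd4, subunits of the NuRD remodelling complex, rose 1.31-fold and 1.15-fold, and Uhrf1, which guides maintenance DNA methylation, rose 1.16-fold. Zfp410, a member chosen after its values were seen and known as an activator of Chd4, had 443, 450 and 436 in STM2457, against 384, 404 and 387 in DMSO, a rise of 1.13-fold (adjusted p = 0.019). That call did not hold with upper quartiles or medians set equal (0.19 and 0.13), nor without DMSO replicate 3 (0.054), STM2457 replicate 1 (0.051) or STM2457 replicate 2 (0.068).

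The partners of tristetraprolin and the deadenylation and decapping factors made a list of 24 genes, of which 10 rose and 6 fell (41.7% and 25%), again near those background shares, or 5 and 8 with upper quartiles set equal. Pan2, a catalytic deadenylase subunit, had 338, 336 and 376 normalised reads in STM2457, against 480, 529 and 503 in DMSO, and fell to 0.69-fold (adjusted p = 3.9e-07). Cnot4 and Cnot11, of the CCR4-NOT complex, rose 1.31-fold and 1.21-fold, and Edc3, an enhancer of decapping, rose 1.22-fold. The Zfp36 relatives carry a letter before their last number and are no members: Zfp36l2 rose 1.15-fold (adjusted p = 0.0043, and 0.08 with upper quartiles set equal) and Zfp36l1 was not called (adjusted p = 0.28, limma).

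Zfp genes lie in clusters in the mouse genome, and 63 members fell into 14 runs of at least 3 members with gaps under 1 Mb (GRCm38, GENCODE M21). By called members alone, 7 runs held both rises and falls, 5 held rises only and 2 held falls only. Several of these rest on 1 called member. The run from Zfp141 to Zfp719 had 1 rise and 2 members not called, with a median log2 fold of -0.097. The run from Zfp930 to Zfp866 had 1 fall and 2 members not called.

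The run at chr7:127233061-127885996 held 7 members, of which 5 rose, 1 fell and Zfp646 was not called. Zfp771 (above) and Zfp553 lead it. Zfp553 had 734, 744 and 737 normalised reads in STM2457, against 529, 541 and 506 in DMSO, far apart and 1.41-fold higher (adjusted p = 4.3e-08). Zfp764, a KRAB gene that shares 27.6% of its 50-base words with other genes, chiefly Zfp747, so that its reads are uncertain, had 391, 423 and 384 in STM2457, against 227, 291 and 290 in DMSO (1.49-fold, adjusted p = 3.4e-06). Zfp768 and Zfp629, named after their values were seen, rose 1.40-fold and 1.28-fold. In the same run Zfp688, a KRAB gene with 2 fingers, had 239, 241 and 266 normalised reads in STM2457, against 341, 382 and 392 in DMSO. Every STM2457 library was below every DMSO library, and at 0.67-fold it was the lowest fold of all members (adjusted p = 8.5e-07). The 5 and 1 calls of this run were the same number with either centring. Among the 11 other tested genes inside the run with a mean of at least 8, 7 rose and 2 fell.

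The promoters of Zfp771 and Zfp688 are shown because the 2 genes lie in 1 run and moved in opposite directions. Each is the 250 bases before the gene's start in RefSeq (GRCm38.p6), at chr7:127244276-127244525 on the plus strand for Zfp771 and chr7:127422035-127422284 on the minus strand for Zfp688. GENCODE M21 starts the genes earlier, Zfp771 at 127244274 and Zfp688 at 127422068, so by that annotation the first window lies inside the gene and the second overlaps its start. Capitals mark matches to the GC box GGGCGG or the CCAAT box CCAAT on either strand; adjoining GC boxes may share bases.
Zfp771: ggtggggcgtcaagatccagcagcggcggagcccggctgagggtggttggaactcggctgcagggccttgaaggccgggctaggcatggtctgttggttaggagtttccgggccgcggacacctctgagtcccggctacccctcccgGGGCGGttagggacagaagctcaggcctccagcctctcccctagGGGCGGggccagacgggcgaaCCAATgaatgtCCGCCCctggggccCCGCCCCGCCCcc
Zfp688: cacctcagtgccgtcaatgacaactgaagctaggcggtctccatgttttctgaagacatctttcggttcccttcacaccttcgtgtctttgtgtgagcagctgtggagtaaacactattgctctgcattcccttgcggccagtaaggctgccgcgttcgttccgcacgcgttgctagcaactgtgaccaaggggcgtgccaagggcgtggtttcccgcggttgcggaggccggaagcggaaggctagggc

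The Zfp771 window held 5 GC boxes and 1 CCAAT box, and the Zfp688 window held neither. Promoters were found for 121 members. A GC box stood in 68.2% of the 44 promoters of members that rose, 53.1% of the 32 of members that fell and 51.1% of the 45 of members not called. The share was 69.1% of 6704 promoters of tested genes with a mean of at least 8 and 35.4% of all 27025 promoters of genes in the table. CCAAT stood in 43.2%, 50% and 44.4% of the same 3 sets of members, in 40.7% of promoters of tested genes with a mean of at least 8 and in 37.5% of all promoters. The TATA box TATAAA stood in 6.82%, 15.6% and 4.44% of those sets, which are 3, 5 and 2 promoters, against 6.83% of promoters of tested genes with a mean of at least 8 and 14.3% of all promoters. A match is a description of the letters in the window only.

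On chromosome 17 more members fell than rose. Of 22 members there 3 rose and 11 fell, with a median log2 fold of -0.18, whereas 152 of the 426 tested genes of the chromosome with a mean of at least 8 rose and 120 fell, with a median of 0.04. With upper quartiles set equal 1 member rose and 16 fell. The run at chr17:32765496-33631779 held 6 members, of which 5 fell and none rose. Zfp101, a KRAB gene with 12 fingers, had 568, 481 and 529 normalised reads in STM2457, against 680, 759 and 656 in DMSO. All STM2457 libraries were lower, at 0.75-fold (adjusted p = 1.5e-05). Zfp871, Zfp955a, Zfp81 and Zfp414, named after their values were seen, stood at 0.87-fold, 0.83-fold, 0.81-fold and 0.83-fold. Zfp955b, at 0.94-fold, was not called (adjusted p = 0.10), but was called lower with upper quartiles or medians set equal (0.005 and 0.0077). Zfp955a and Zfp955b share 51.8% and 31.7% of their 50-base words with other genes, chiefly each other, and Zfp414 shares 25% with Gm20507, so their reads are uncertain. In a second run of 12 members at chr17:21008903-23599487, which holds Zfp760 and Zfp945, 2 rose and 3 fell, or 0 and 7 with upper quartiles set equal.

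Chromosome 7 held 30 members, the most of any chromosome, with 14 higher and 6 lower, beside 213 and 142 of 563 tested genes there with a mean of at least 8. With upper quartiles set equal the members' counts became 12 and 10. On chromosome 6, 6 of 10 members rose and 1 fell, beside 152 and 103 of 397 tested genes there with a mean of at least 8. With upper quartiles set equal the members' counts were 5 and 1.

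**Figure D4:**
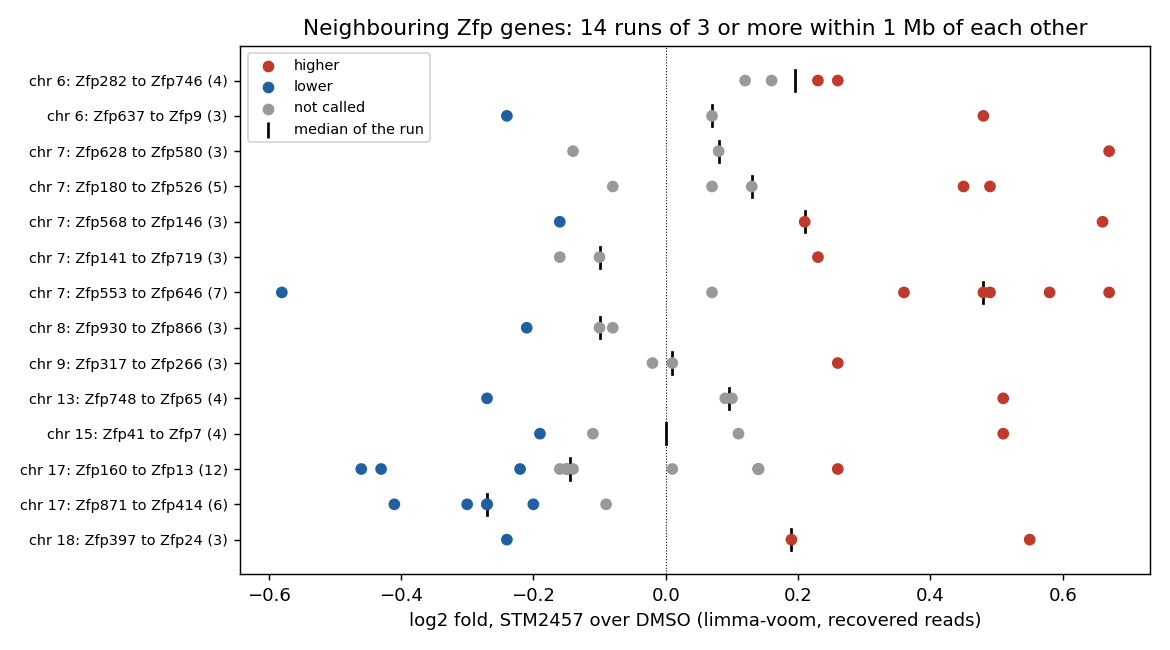
Log2 fold of STM2457 over DMSO in recovered reads (x axis) for the 63 members in 14 runs of neighbours, 1 row per run, labelled with the first and last member and the number of members. Points are genes coloured by call and black bars the median of the run. The chromosome 7 run from Zfp553 to Zfp646 has 5 members higher and 1 lower, and the chromosome 17 run from Zfp871 to Zfp414 has 5 lower and none higher.

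DRACH matches were counted in the coding sequence of each member. The median density of 20.7 per kb equalled that of the 8094 tested genes with a mean of at least 8 that had a coding sequence. Among the 25 members under 15 per kb 15 rose and 3 fell, with a median log2 fold of 0.20. Among the 40 members from 15 to under 20 per kb 20 rose and 11 fell, with a median of 0.13. Among the 53 from 20 to under 25 per kb 13 rose and 16 fell, and among the 32 from 25 per kb up 6 rose and 8 fell, with medians of -0.02 and -0.005. With upper quartiles set equal the counts in the same order were 12 and 5, 15 and 13, 10 and 23, and 4 and 15. Among all tested genes with a mean of at least 8, the shares higher and lower in the same 4 classes were 46.3% and 21.2%, 39.9% and 24.5%, 37.8% and 23.9%, and 36.2% and 23.7%, with medians of 0.10, 0.06, 0.05 and 0.04. The members' own shares were 60% and 12%, 50% and 27.5%, 24.5% and 30.2%, and 18.8% and 25%.

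Across the 150 members, Spearman's rho of fold with DRACH density was -0.26 and with coding GC content 0.28, and across the 8094 genes -0.05 and 0.15. DRACH density and GC content were themselves related, with a rho of -0.70 across members, and their parts were not separated. These correlations run across genes of the same 6 libraries and carry no test. Members had long last exons, with a median of 2652.5 bases against 1266 for the 8094 genes, and rho of fold with last-exon length was 0.09 in both.

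**Figure D5:**
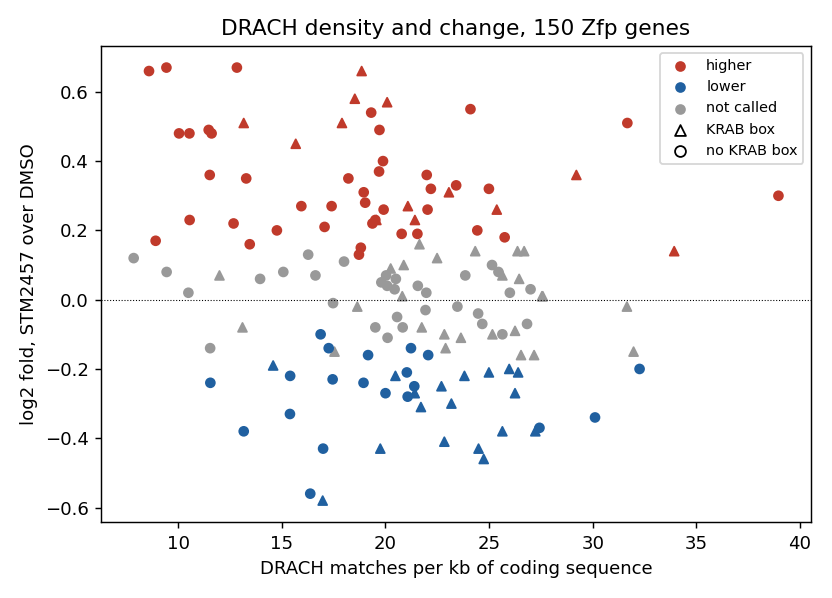
Log2 fold of STM2457 over DMSO in recovered reads (y axis) against DRACH matches per kb of coding sequence (x axis) for the 150 members. Colour gives the call and shape the KRAB box. Of the 25 members under 15 per kb 15 rose and 3 fell, and of the 32 from 25 per kb up 6 rose and 8 fell; with upper quartiles set equal these counts are 12 and 5, and 4 and 15.

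Family members resemble each other in sequence, and 15 of the 150 shared at least 10% of their 50-base words with another gene, so that counting could split or drop their reads. Of these 15, 2 rose and 5 fell. Leaving them out, a choice made after seeing the data, gave 52 members higher and 33 lower of 135. Exons of 44 members overlap a gene on the opposite strand, and 29 of the 44 were called. The share called was 62.9% among tested genes with a mean of at least 8. Without them, also chosen after seeing the data, 36 rose and 27 fell of 106. Of the 251 Zfp genes under the level 39 were listed at 0 in every library and 171 were tested. Of these 171, 25 rose and 29 fell (14.6% and 17%). Among all tested genes 30.7% rose and 25.7% fell. Those include the genes at or above the level, so the shares are not matched for level.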

How the data were processed

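The authors deposited log2 values for each gene symbol in each library. HISAT2 2.2.1, featureCounts 2.0.1 (Subread), FastQC 0.11.9, DESeq2 and GRCm38 are named per the submitters' processing notes; no source used here states the transform, the annotation or the use of strand. The values behave as a regularised log2 transform, which shrinks differences (prior SD 0.186). Its equations were inverted to recover reads: among genes with means from 100 to under 500 reads 95.8% of values were whole within 0.05 reads, from 500 to under 2000 82.2% and from 2000, the range of Zfp207, Zfp106, Zfp598, Zfp91, Zfp706 and Zfp740, 37.0%; the members' share was 87.2%. Normalised reads are recovered reads over size factors (0.995 to 1.009), and folds come from limma-voom on them.

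The test was limma 3.58.1 (R 4.3.3, statmod 1.5.0; group only, eBayes with trend and robust priors) on deposited log2 values of 12618 genes with a mean of at least the log2 of 10, with Benjamini-Hochberg adjustment over all of them and a threshold of 0.05. On simulated data for STM2457 against DMSO it recovered 94 of 100 genes simulated at a log2 fold of 1 and 87 of 100 at 0.5. Of 12418 unchanged genes 6 passed, among 12618 genes. The simulation gave every gene the same small dispersion and changed few genes, whereas 56.3% of real genes were called. Between real libraries, chi-square of reads over its degrees of freedom was 3.02 to 5.03 in DMSO and 1.56 to 2.3 in STM2457. The simulated rates therefore need not hold for these libraries. Groups of 3 libraries allow no single-gene permutation test under the threshold.

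Members and lists were chosen with earlier results of these data known. Named genes are the 12 largest rises and 12 largest falls among called members without overlap, the members listed as acting on RNA or as ligases and spindle factors, the 4 genes around the level, up to 4 genes of smallest adjusted p from each other list, and Trim28, Setdb1, Mettl3, Zfp36l1 and Zfp36l2. KRAB boxes were called from 16 matching residues in a consensus of 41, SCAN boxes from 20 of 58, on proteins translated from GENCODE M21. Fingers were counted on the same proteins by strict spacing of cysteines and histidines, so other spacings were missed. Zfp267 was matched through its RefSeq synonym D3Ertd254e. Motifs were searched on both strands, also the ETS site CCGGAAGT and the CRE TGACGTCA, found in 9.09% and 4.13% of members' promoters, 8.2% and 3.31% of those of tested genes with a mean of at least 8, and 3.23% and 1.77% of all promoters. Alternatives were 2 centrings, 2 filters, eBayes settings, voom, a replicate block, each library left out and other levels.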

Additional observations from a re-analysis of the deposited data

How the results depend on the processing

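Over the 87 genes named by the rule or after their values were seen, no called gene reversed direction, and 1096 of 1130 values under an alternative kept their side of the threshold; 18 lost it and 16 gained it, in 13 genes. Zfp346 missed the threshold in 2 settings (0.1 and 0.096), Zfp91 in 5 settings (adjusted p 0.051 to 0.097) and Zfp408 with upper quartiles set equal (0.057), all by limma; Zc3h3 missed it in 4 settings (0.054 to 0.12). The median log2 difference of members, 0.03, was -0.008 with upper quartiles and -0.003 with medians set equal, which move the median of all genes by construction (0.004 to -0.034 and -0.029). It was 0.059 with voom, which is not shrunken, 0.023 at a level of 7 (227 members), 0.018 at 9 (80 members) and 0.018 without members with opposite-strand overlap, an alternative added after seeing the data. Leaving out each library in turn gave 0.022 to 0.034, with 49 to 56 members higher and 30 to 37 lower. With a replicate block 54 rose and 37 fell; the numbers do not pair the libraries (correlations 0.0501, 0.011 and 0.0399, and replicate 2 did not correlate best with its own number). At 9, 28 members rose and 22 fell. KRAB members lower numbered 29 with upper quartiles set equal, against 18. Centring on the upper quartile lost 13 of 92 called members and gained 18.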

Other observations

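Other zinc-finger families with the same minimum level were counted in the same fit. The background for each family is all tested genes with a mean of at least 8, of which 38.9% rose and 24% fell. Of 26 Zbtb genes, which join the fingers to a BTB domain, 14 rose and 1 fell (53.8% and 3.85%), with a median log2 fold of 0.20. With upper quartiles set equal 12 rose and 3 fell. Zbtb45 had 559, 534 and 581 normalised reads in STM2457, against 393, 330 and 354 in DMSO, a rise of 1.56-fold (limma adjusted p = 2.2e-08). Zbtb12 had 758, 815 and 761 in STM2457, against 539, 539 and 480 in DMSO, a rise of 1.5-fold (limma adjusted p = 8.6e-09). Zbtb7a, a repressor known for its part in blood cell fate, rose 1.34-fold and Zbtb1 1.40-fold, with no overlap between groups in any of these 4 genes. No test compared the Zbtb genes with the Zfp members.

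Of 4 Zkscan genes, which join a SCAN and often a KRAB box to the fingers, none rose and 2 fell. Zkscan8 had 534, 554 and 548 normalised reads in STM2457, against 763, 823 and 759 in DMSO, a level of 0.70-fold (limma adjusted p = 2.1e-08). Zkscan3 had 1405, 1450 and 1470 in STM2457, against 1724, 1891 and 1664 in DMSO, a level of 0.82-fold (limma adjusted p = 1.4e-05). Of 10 Zc3h genes 4 rose and 1 fell (40% and 10%), the rising share near the background. Zc3h13, a subunit of the m6A writer complex, had 808, 873 and 773 normalised reads in STM2457, against 729, 633 and 693 in DMSO, a rise of 1.19-fold (limma adjusted p = 7.4e-04). Of 7 Klf genes 2 rose and 1 fell (28.6% and 14.3%), beside a background of 38.9% and 24%. A list of 7 genes is too short to set these shares apart from it. Klf16 rose 1.35-fold, Klf6 1.13-fold and Klf9 fell to 0.78-fold.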
